A study of Mus musculus with 4 samples.

Results

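Transcripts of 8 genes that steer lymphocytes and monocytes between blood, lymphoid organs and tissue (Ccr7, S1pr1, Klf2, Cxcr3, Cxcr6, Ccr2, Cxcr4 and Cx3cr1) were examined in cells sorted from B16-F10 tumors. They were found as the rows of the count tables whose gene symbol equaled a member's symbol, which gave 8 of 55367 gene rows, and all 8 were among the 11837 genes with enough counts to be tested. RNA was polyadenylated RNA from 4 mouse libraries, titled WT1, WT2, KO1 and KO2, so that each group held 2. B16-F10 is a mouse melanoma line that grows as a tumor after injection into mice, and in all 4 libraries the cells had, per the labels, been dissociated from the tumor and sorted as CD45.2+CD8+, where CD45.2 marks leukocytes and CD8 marks cytotoxic T cells. WT stands for mice with intact Satb1, a chromatin organizer of T cells. KO stands for mice in which floxed Satb1 was to be deleted by a Cre transgene. The series' design text, which speaks of single-cell data, names ThPOK-cre, which acts in the CD4 lineage, and E8I-cre, which acts in the CD8 lineage, and the labels do not say which of them was behind the KO title. The study's tumor experiments are described for Satb1 F/F mice with Thpok-cre, while the sort of CD8+ cells behind these 4 libraries is not described there. Neither the age nor the sex of the 4 donor animals was in the labels, the methods describe adult mice of mixed sexes in general, and nothing says that libraries of 1 group came from separate animals. The p-values below therefore measure only the spread between these libraries, which may be technical.

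CCR7, CXCR3, CXCR6, CCR2, CXCR4 and CX3CR1 are receptors for chemokines, small secreted proteins whose gradients direct moving cells, and S1PR1 is a receptor for the lipid sphingosine 1-phosphate (S1P), which is abundant in blood and lymph. Naive and memory T cells use CCR7 to enter lymph nodes and S1PR1 to leave them, and the transcription factor KLF2 keeps S1pr1 on in such cells. Effector T cells in inflamed tissue and tumors carry CXCR3 and CXCR6, monocytes leave the bone marrow by CCR2, CX3CR1 marks patrolling monocytes, many tissue macrophages and some effector T cells, and CXCR4 holds cells near its ligand CXCL12.

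The stretches before the start sites of Cxcr3 and Cxcr6, both genes of effector T cells, are shown because each held 1 of the letter patterns searched for. The sequences are from RefSeq for GRCm38.p6 and end just before the first exon of GENCODE M21. Capitals mark, in Cxcr3, ACTTCCT, the reverse of the ETS core AGGAAGT, and in Cxcr6, CTTTGA, a core that TCF and LEF factors bind. Both are printed 5′ to 3′ on the strand of the gene.
Cxcr3 (chrX:101734270-101734397, minus strand): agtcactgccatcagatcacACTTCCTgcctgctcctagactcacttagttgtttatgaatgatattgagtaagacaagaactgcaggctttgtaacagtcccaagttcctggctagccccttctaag
Cxcr6 (chr9:123806227-123806474, plus strand): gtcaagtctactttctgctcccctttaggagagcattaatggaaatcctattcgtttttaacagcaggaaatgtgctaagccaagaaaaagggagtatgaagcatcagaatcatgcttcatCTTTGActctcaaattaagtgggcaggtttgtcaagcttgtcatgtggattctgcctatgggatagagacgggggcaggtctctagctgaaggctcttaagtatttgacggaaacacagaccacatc
In the 250 bases before the RefSeq start site, 5 patterns were searched for on both strands, and no matches overlapped. RefSeq promoters were at hand for 6 of the 8 genes, all but Ccr7 and S1pr1. AGGAAGT occurred in Cxcr3 alone of the 6, on the reverse strand, 230 and 16 bases before the start, of which the latter lies past the printed stretch, and 7.69% of 32851 promoters held it. CTTTGA occurred in Cxcr6 alone, 129 bases before the start, and 13.8% of all promoters held it. CACCC, the core bound by KLF factors, occurred in Klf2, Cxcr4 and Cx3cr1 and in 52.0% of all promoters. TCACACC, a T-box core held by 3.33% of promoters, and a spaced kappaB-like pattern of 10 letters held by 1.41%, occurred in none of the 6. These matches are descriptions of letters, and no binding was measured.

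The 4 libraries had 4017875 to 5382915 counts on genes, and CPM below is the count scaled to a total of 1000000 of these. Groups were compared by the quasi-likelihood test of edgeR with TMM scaling (trimmed mean of M-values) of library sizes, and p-values were adjusted over all genes tested. Satb1 went against the labels: its counts were 7 in WT1, 5 in WT2, 131 in KO1 and 55 in KO2, a log2 fold change of 3.36 ± 0.79 (standard error, SE) toward the KO-labeled libraries (edgeR adjusted p = 0.115). It passed the threshold in DESeq2 (adjusted p = 0.00781), in the likelihood ratio test of edgeR (adjusted p = 0.00321), with no filter on low counts (edgeR adjusted p = 0.00287), with a replicate block (edgeR adjusted p = 0.0434) and without KO2 (edgeR adjusted p = 0.00942). Per 100 counts on the T cell markers described next, Satb1 had 2.59, 1.1, 1.2 and 0.829 counts, so that the groups overlapped on that scale. Counts per exon were not analysed here, and whether the titles match the genotypes was not tested. All directions are therefore those of the libraries as labeled. The sort went against its label as well. The 10 T cell identity markers, which include Cd3e and Cd8a, held 0.00672% of gene counts in WT1, 0.0106% in WT2, 0.244% in KO1 and 0.123% in KO2, whereas the 13 macrophage or monocyte markers, which include Csf1r and Lyz2, held 2.74%, 3.76%, 2.22% and 2.77%. Cd8a had 24 and 28 counts in the WT-labeled libraries and 843 and 733 in the KO-labeled ones, and 9 of the 10 T cell markers rose past the threshold, or 4 of 10 without WT1. Melanoma and fibroblast markers were higher in the KO-labeled libraries too. The 8 melanoma markers held 0.0226% and 0.0268% of counts in the WT-labeled libraries and 0.239% and 0.132% in the KO-labeled ones, with 1 of 8 past the threshold, 0 without WT1, 4 without KO1, 8 without KO2 and 6 in DESeq2. The 6 fibroblast markers held 0.000772% and 0.000305% against 0.147% and 0.0181%, with 3 of 4 tested past it. The part of these cells in the rises below was not tested. The X-linked Xist had 435 and 216 counts against 0 and 3, and 4 Y-linked genes had 0 and 0 counts against 416 and 255 in sum, so that sex and group cannot be told apart. In such bulk libraries, fewer cells of a type and less RNA per cell cannot be told apart.

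Across the 8 genes, 1 passed the threshold, Ccr7, which rose. Over all genes tested, 0.574% passed in either direction, 0.549% higher and 0.0253% lower, and 13.7% had an unadjusted p under 0.05. By the other rules used below, 3.51% of genes passed in DESeq2, 4.70% in the likelihood ratio test and 2.74% with no filter on low counts. With a library left out, 0.862% passed without WT1, 1.73% without WT2, 0.998% without KO1 and 9.72% without KO2. In CPM the groups did not overlap for 4 of the 8, Ccr7, Cxcr3, Cxcr6 and Ccr2, all higher in the KO-labeled libraries, where 48.4% of all genes tested did not overlap and 35.9% were higher in this way. With TMM scaling, Klf2 and Cx3cr1 did not overlap either and were lower in the KO-labeled libraries, where 47.9% of all genes did not overlap, 25.3% higher and 22.6% lower. The fitted change was positive for 5 genes and negative for 3, with a median log2 fold change of 1.03 beside 0.05 over all genes tested. The members' count of calls was thus carried by a single gene.

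**Figure D1:**
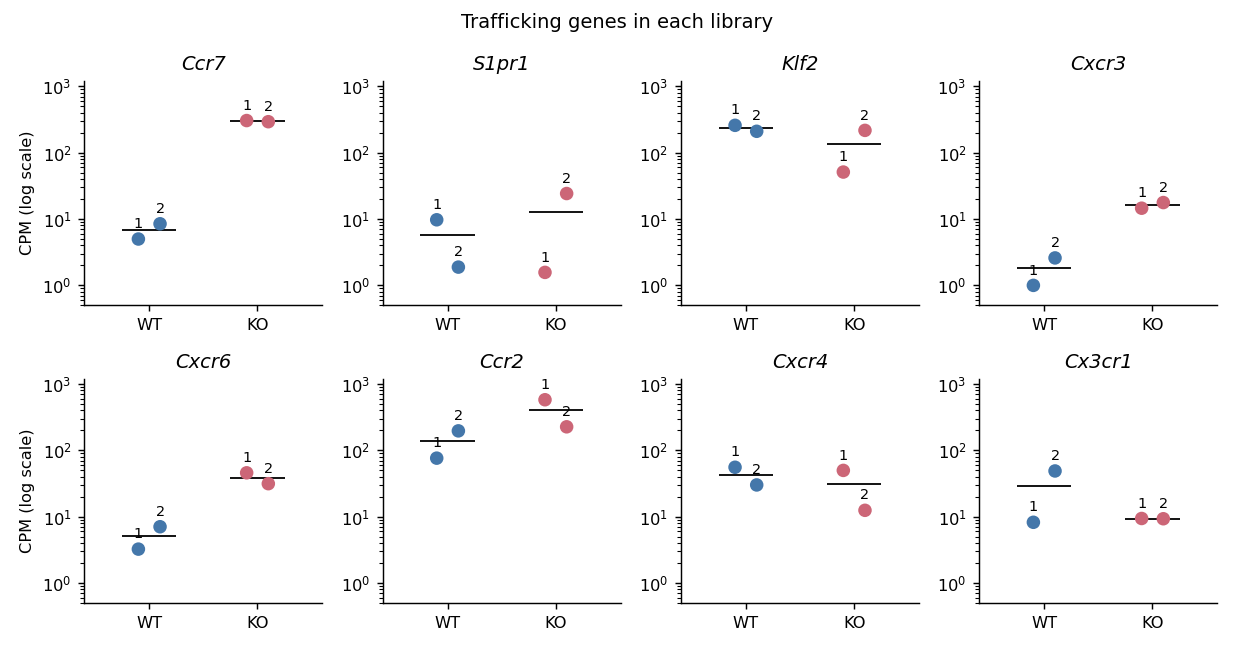
CPM of each gene (log scale) in the 4 libraries, with points numbered by replicate and bars at the mean of the 2 libraries of a group. Ccr7 stood at 4.98 and 8.45 CPM in the WT-labeled libraries and at 304 and 292 in the KO-labeled ones, whereas the libraries of S1pr1 differed by 5.17-fold within WT and 15.5-fold within KO.

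The 1st group of genes governs recirculation through lymph nodes. Ccr7, the receptor for the lymph node chemokines CCL19 and CCL21, lies on chromosome 11 from 99144196 to 99155077 of GRCm38/mm10, minus strand (ENSMUSG00000037944.8, with 1978 exonic bases). Its counts were 20 in WT1, 36 in WT2, 1363 in KO1 and 1574 in KO2. This was 4.98, 8.45, 304 and 292 CPM, so that both KO-labeled libraries lay far above both WT-labeled ones, while the 2 KO-labeled libraries differed by 1.04-fold. The mean was 6.71 ± 2.45 CPM (SD, n = 2) against 298 ± 8.38 (SD, n = 2). The log2 fold change was 5.15 ± 0.52 (SE), a 35.5-fold rise (edgeR adjusted p = 0.0172). Ccr7 had the smallest p of all genes tested and ranked 92nd of them by the size of its rise. By TMM-scaled CPM it stood at the 27.4th percentile of the tested genes in the WT-labeled libraries and at the 95.4th in the KO-labeled ones. Leaving out each library in turn kept its log2 fold change between 4.85 and 5.42.

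Ccr7 is carried both by T cells and by mature dendritic cells, and marker counts of both were higher in the KO-labeled libraries. Per 100 counts on the T cell identity markers, Ccr7 had 7.41 counts in WT1, 7.95 in WT2, 12.5 in KO1 and 23.7 in KO2. The ratio was higher in both KO-labeled libraries, by 2.36-fold between the group means, which is smaller than the change in CPM. The 8 mature dendritic cell markers held 0.00316% and 0.00232% of counts in the WT-labeled libraries and 0.0135% and 0.00955% in the KO-labeled ones, with 0 of the 7 that could be tested past the threshold in the edgeR test, 4 at an unadjusted p under 0.05 (13.7% of all genes) and 3 past it in DESeq2. Their median log2 fold change was 2.64, or 1.97 without WT2 and 2.81 without KO2. Per 100 counts on all 8 markers, Ccr7 had 15.7, 36.4, 225 and 306 counts. Ccr7 was thus higher in both KO-labeled libraries relative to either list, and the part of either cell type in its rise was not tested.

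Klf2, the transcription factor that favors exit from lymph nodes, lies on the plus strand of chromosome 8 from 72319033 to 72321656. Its counts were 1036 in WT1, 893 in WT2, 228 in KO1 and 1165 in KO2, or 258, 210, 50.9 and 216 CPM. KO1 alone was low, and KO2 lay between the WT-labeled libraries, so that the groups overlapped in CPM. The TMM-scaled CPM of 310, 220, 43.2 and 202 did not overlap, since KO2 then lay just under WT2. Its fitted log2 fold change was -1.11 ± 0.66 (SE; edgeR adjusted p = 0.485). It was -0.39 without KO1, and without KO2 it was -2.65 and passed the threshold (edgeR adjusted p = 0.00497). Klf2 was the most abundant of the 8 genes per kilobase of exon in the WT-labeled libraries. It is also made by macrophages and endothelial cells, and per 100 macrophage or monocyte marker counts it had 0.943 counts in WT1, 0.558 in WT2, 0.229 in KO1 and 0.782 in KO2. KO1 was low on that scale too, and KO2 lay between the WT-labeled libraries. Per 100 T cell marker counts Klf2 had 384, 197, 2.09 and 17.6 counts, lower in both KO-labeled libraries.

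S1pr1, the S1P receptor by which lymphocytes leave lymph nodes and which endothelial cells also carry, lies on the minus strand of chromosome 3 from 115710433 to 115715072. Its counts were 39 in WT1, 8 in WT2, 7 in KO1 and 130 in KO2, or 9.71, 1.88, 1.56 and 24.2 CPM. WT1 and KO2 were high, WT2 and KO1 were low, and the groups overlapped. The 2 KO-labeled libraries differed by 15.5-fold, more than those of any other member. The log2 fold change was 0.83 ± 1.15 (SE; edgeR adjusted p = 0.788), and its sign rested on KO2, without which it was -2.36. With exact Clopper-Pearson intervals that cover counting error only, the CPM of KO1 ranged from 0.628 to 3.22 and that of KO2 from 20.2 to 28.7. The spread of S1pr1 within a group was far above counting error, and a difference between the groups was not detectable. The endothelial markers held 0.00475% and 0.00383% of counts in the WT-labeled libraries and 0.00328% and 0.00422% in the KO-labeled ones, most of it on Pecam1 and Kdr. Of these 6 markers, Cdh5 had 1, 6, 1 and 1 counts in WT1, WT2, KO1 and KO2, and Tek had 0, 0, 2 and 0. Kdr had 82, 49, 25 and 40, Vwf 33, 31, 13 and 44, Pecam1 51, 63, 70 and 124, and Egfl7 24, 14, 36 and 18. The part of endothelial cells in the S1pr1 values was not tested.

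The other genes of the recirculation and KLF2 program, a list of 11, had a median log2 fold change of 0.91 beside 0.05 over all genes tested, with 9 positive and 2 negative. The median was 0.22 without KO1 and 1.48 without KO2. Past the threshold, 1 of the 11 rose and 0 fell, where 0.549% of all genes tested rose. The gene past it was Tcf7, the gene of TCF-1, a factor of naive and memory T cells, with 9, 4, 376 and 156 counts in WT1, WT2, KO1 and KO2. Its log2 fold change was 4.75 ± 0.75 (SE; edgeR adjusted p = 0.0317). Lef1, the gene of the related factor LEF-1, chosen after its values were seen, had 1, 5, 76 and 76 counts and a log2 fold change of 4.08 ± 0.86 (SE; edgeR adjusted p = 0.0778). Its value was 3.40 without WT1 and 5.36 without WT2, and it passed in DESeq2 (adjusted p = 0.00292), the likelihood ratio test, with no filter or the stricter one, with the replicate block, and without WT2 or KO2. In CPM, Ccr7, Tcf7 and Lef1 were each higher in both KO-labeled libraries, as the T cell markers were, whereas Klf2 and S1pr1 overlapped. Tcf7 and Lef1 were not set against the T cell marker counts, and the part of T cells in their rises was not tested.

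The 2nd group of genes directs effector T cells into inflamed tissue. Cxcr3, the receptor for the interferon-induced chemokines CXCL9, CXCL10 and CXCL11, lies on the minus strand of chromosome X from 101731535 to 101734269. Its counts were 4 in WT1, 11 in WT2, 65 in KO1 and 95 in KO2, or 0.996, 2.58, 14.5 and 17.7 CPM. Both KO-labeled libraries were above both WT-labeled ones, with means of 1.79 ± 1.12 CPM (SD, n = 2) and 16.1 ± 2.22 (SD, n = 2). Its fitted log2 fold change was 2.85 ± 0.73 (SE) and did not pass the threshold (edgeR adjusted p = 0.144). At 4 counts, the exact interval for WT1 ran from 0.271 to 2.55 CPM, so that its level was set only roughly. Cxcr3 is X-linked, and the libraries differed in Xist and Y-linked counts as given above.

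Cxcr6, the receptor for CXCL16 and a marker of effector and tissue-resident T cells, lies on the plus strand of chromosome 9 from 123806475 to 123811760. Its counts were 13 in WT1, 30 in WT2, 205 in KO1 and 169 in KO2, or 3.24, 7.04, 45.8 and 31.4 CPM. The groups did not overlap, with means of 5.14 ± 2.69 CPM (SD, n = 2) and 38.6 ± 10.2 (SD, n = 2). The log2 fold change was 2.58 ± 0.57 (SE) and did not pass the threshold (edgeR adjusted p = 0.0932). Cxcr3 and Cxcr6 both passed with no filter on low counts, in DESeq2 and in the likelihood ratio test of edgeR. The log2 fold change of Cxcr3 was 2.35 without WT1 and 3.52 without WT2. That of Cxcr6 was 2.14 without WT1 and 3.07 without WT2. Their calls thus depended on the test and the filter, and the size of their changes on single WT-labeled libraries, whereas the fitted sign was positive in every alternative run.

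Within a library, Cxcr3 had 0.308 counts per Cxcr6 count in WT1, 0.367 in WT2, 0.317 in KO1 and 0.562 in KO2. The highest of these ratios was in KO2, and the groups overlapped, since KO1 lay between the WT-labeled libraries. Ccr7 had 1.54 and 1.20 counts per Cxcr6 count in the WT-labeled libraries and 6.65 and 9.31 in the KO-labeled ones, and was 5.82-fold higher relative to Cxcr6 between the group means. Per 100 T cell marker counts, Cxcr6 had 4.81, 6.62, 1.88 and 2.55 counts, lower in both KO-labeled libraries, and Cxcr3 had 1.48, 2.43, 0.596 and 1.43. Cxcr6 was therefore higher in both KO-labeled libraries in CPM and lower relative to the T cell markers, while Ccr7 was higher on both scales. For Cxcr3, with 4 counts in WT1, the ratios of WT1 and KO2 were too close to set a direction.

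**Figure D2:**
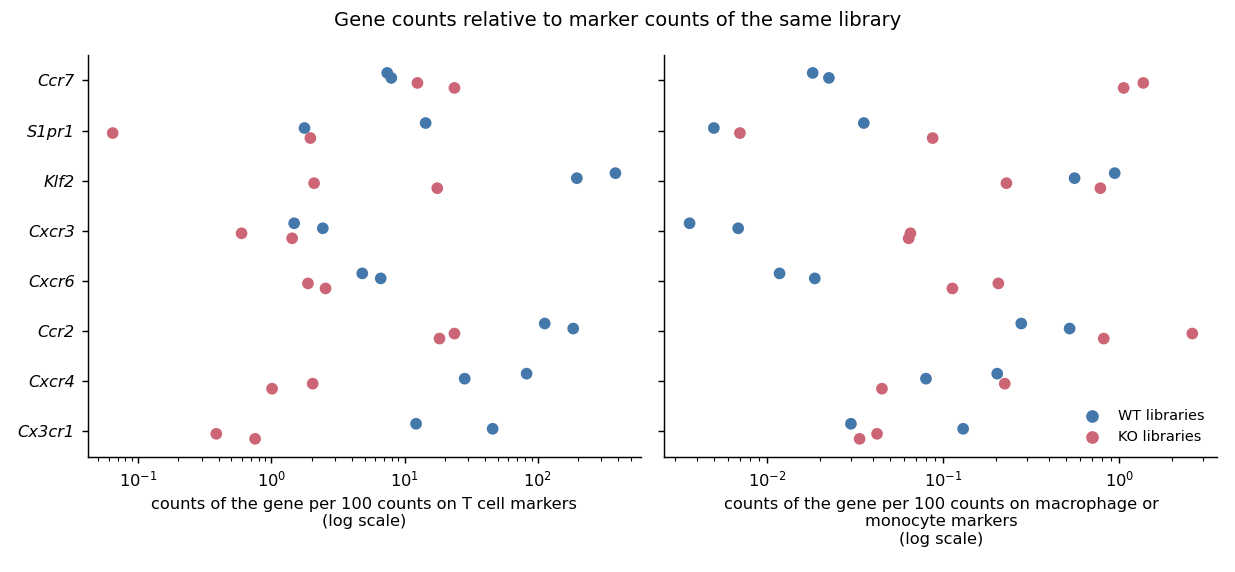
Counts of each gene per 100 counts on 10 T cell identity markers (left) and on 13 macrophage or monocyte markers (right) of the same library, on log axes, with 1 point per library. On the left only Ccr7 lay higher in both KO-labeled libraries, and on the right Ccr7, Cxcr3, Cxcr6 and Ccr2 did.

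The 3rd group of genes holds Ccr2 and Cx3cr1, used mainly by monocytes and macrophages, and Cxcr4. Ccr2, the receptor for CCL2, CCL7 and CCL12, lies on the plus strand of chromosome 9 from 124101950 to 124113557, 290 kb beyond Cxcr6. Its counts were 306 in WT1, 837 in WT2, 2592 in KO1 and 1217 in KO2, or 76.2, 196, 579 and 226 CPM. The groups did not overlap, but KO2 was close to WT2, and the libraries differed by 2.58-fold within WT and 2.56-fold within KO. Its fitted log2 fold change was 1.24 ± 0.58 (SE; edgeR adjusted p = 0.389). It was 0.50 without KO1, and without KO2 it was 1.68 and passed (edgeR adjusted p = 0.0374). Of the 50-base stretches of its exons, 1.91% also occur in other genes, so that a small part of its reads could be lost or shared.

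Ccr2 is known best as a receptor of inflammatory monocytes. Per 100 macrophage or monocyte marker counts it had 0.278 counts in WT1, 0.523 in WT2, 2.60 in KO1 and 0.817 in KO2, 4.27-fold higher between the group means, or 2.04-fold without KO1 and 6.49-fold without KO2. Of these 13 markers, 0 passed the threshold in the edgeR test, 5 were lower at an unadjusted p under 0.05 (either direction, 13.7% of all genes), and 2 were lower past it in DESeq2. Their median log2 fold change was -1.20, or -0.74 without KO1 and -1.53 without KO2. Per 100 T cell marker counts, Ccr2 had 113, 185, 23.7 and 18.3 counts and so was lower in both KO-labeled libraries. Ccr2 was thus lower relative to the one list and higher relative to the other.

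Cx3cr1, the receptor for CX3CL1, lies on the minus strand of chromosome 9 from 119901616 to 120069879 and shares 1.73% of its exonic bases with Gm33858 on the other strand. Its counts were 33 in WT1, 208 in WT2, 42 in KO1 and 50 in KO2, or 8.21, 48.8, 9.38 and 9.29 CPM. WT2 alone was high, and WT1 lay below both KO-labeled libraries in CPM. With TMM scaling WT1, at 9.87, lay just above them, at 7.95 and 8.68. The log2 fold change was -1.88 ± 0.74 (SE; edgeR adjusted p = 0.309), and it was -0.29 without WT2. The KO-labeled libraries differed by 1.01-fold and the WT-labeled ones by 5.94-fold, and WT2 decided the size of the change. Per 100 macrophage or monocyte marker counts, Cx3cr1 had 0.0300, 0.130, 0.0422 and 0.0336 counts, with WT2 again apart.

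Cxcr4, the receptor for CXCL12, which is found on most leukocytes, lies on the minus strand of chromosome 1 from 128588199 to 128592293. Its counts were 223 in WT1, 128 in WT2, 223 in KO1 and 67 in KO2, or 55.5, 30.04, 49.8 and 12.5 CPM. KO2 alone was low and the groups overlapped. Its fitted log2 fold change was -0.87 ± 0.65 (SE; edgeR adjusted p = 0.578), -2.08 without KO1 and -0.25 without KO2. Klf2 and Cxcr4 thus had fitted values of like size, but the low library was KO1 for Klf2 and KO2 for Cxcr4.

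**Figure D3:**
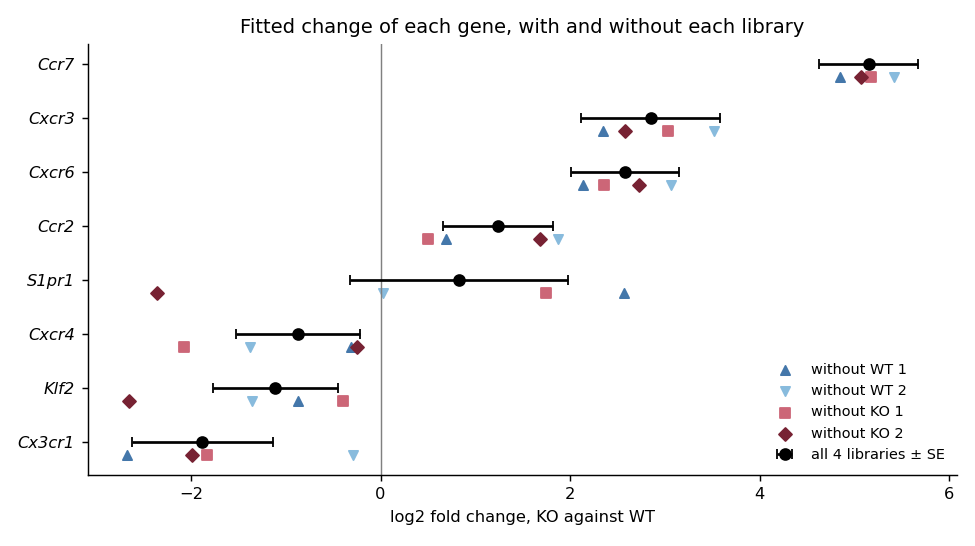
Fitted log2 fold change of each gene, KO against WT, with all 4 libraries (black, bars are SE) and with each library left out in turn (colored marks). Ccr7 stayed between 4.85 and 5.42, whereas S1pr1 ran from -2.36 to 2.57 and Klf2 from -2.65 to -0.39.

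Levels between genes were compared per kilobase of exon. In the WT-labeled libraries the order by mean CPM per kilobase was Klf2 at 127, Cxcr4 at 23.7, Ccr2 at 20.2, Cx3cr1 at 6.33, Ccr7 at 3.39, Cxcr6 at 2.66, S1pr1 at 1.90 and Cxcr3 at 1.03. Neighbors in this order overlapped in their ranges except Klf2 against Cxcr4 and Ccr2 against Cx3cr1. In the KO-labeled libraries the order was Ccr7 at 151, Klf2 at 72.4, Ccr2 at 59.5, Cxcr6 at 19.98, Cxcr4 at 17.2, Cxcr3 at 9.29, S1pr1 at 4.22 and Cx3cr1 at 2.07. There Ccr7 against Klf2, Ccr2 against Cxcr6 and Cxcr3 against S1pr1 did not overlap. Ccr7 stood 5th by the WT mean and 1st by the KO mean. The place of Cx3cr1 rested on single libraries, since it was 6th in WT1 at 1.82 and 4th in WT2 at 10.8, and in KO1 S1pr1 rather than Cx3cr1 was last.

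The patterns over the 4 libraries were compared by the distance between centered log2(TMM-scaled CPM + 0.5) values, over 10434 genes with a mean of at least 20 counts per library. With 4 points per gene this likeness is loose, and it is given as a description. Cxcr3 and Cxcr6 were the closest pair of members, at 0.58, and Ccr7 lay 2.46 from Cxcr3 and 2.58 from Cxcr6. The genes most like Ccr7 were Nefh, a neurofilament gene, at 0.45, Trbv12-1, a variable segment of the T cell receptor beta chain, at 0.48, and Camk4, a calcium-dependent kinase, at 0.59, and only 11 genes lay within a distance of 1. In WT1 and WT2, Nefh had TMM-scaled CPM of 0 and 0 and Camk4 of 0 and 0.493. Their distances to Ccr7 therefore rest on the added 0.5. Those most like S1pr1 were Mmp12, a macrophage elastase, at 0.29, Cd5l at 0.47 and Cxcl3 at 0.50, with 9 genes within 1. Mmp12 had TMM-scaled CPM of 278, 59.9, 46.4 and 454, high in WT1 and KO2 as S1pr1 was.

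Klf2 was most like Grn, the gene of the lysosomal protein progranulin, at 0.14, Pqlc2 at 0.15 and Slc28a2 at 0.16, all low in KO1. Cxcr3 was most like H2-Ea at 0.26, Sapcd2 at 0.28 and Ccsap at 0.29, and Cxcr6 like Fam107b at 0.08, Stk39 at 0.17 and Bace2 at 0.18. Ccr2 was most like Ccdc50 at 0.06, Nucks1 at 0.10 and Kif2a at 0.12, with 1187 genes within a distance of 1, the most of any member. Cxcr4 was most like Foxo3 at 0.12, Atf5 at 0.13 and Slc30a1 at 0.20. Cx3cr1 was most like Dnase1l3 at 0.57, the adhesion molecule gene Vcam1 at 0.72 and Hebp1 at 0.72, all highest in WT2, and 11 genes lay within 1. Many genes thus lay within 1 of Ccr2, Cxcr4, Klf2 and Cxcr6, and few within 1 of Ccr7, S1pr1 and Cx3cr1. The values were centered but not scaled, so these numbers also depend on the size of a gene's differences.

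**Figure D4:**
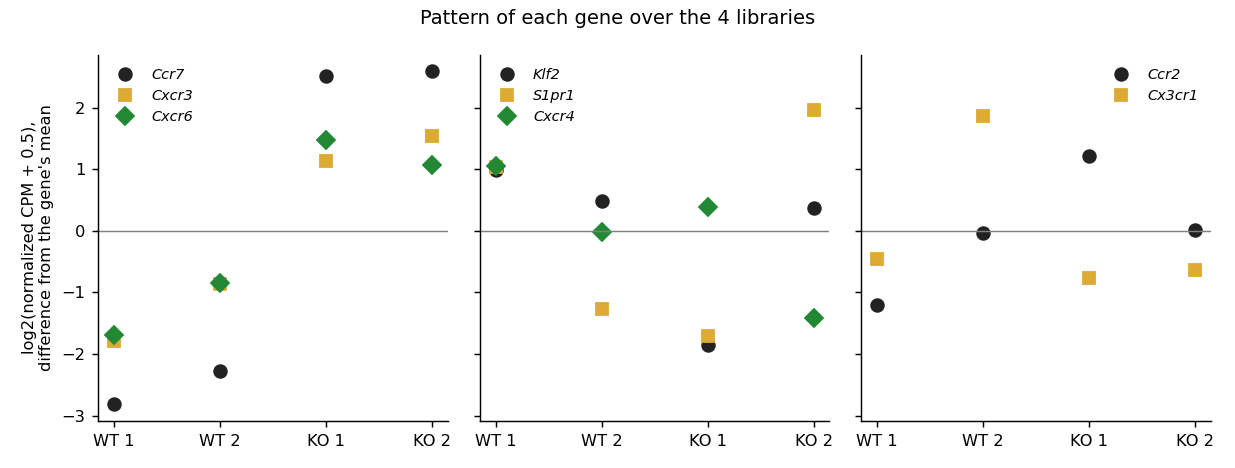
Difference of each gene's log2(TMM-scaled CPM + 0.5) from its mean over the 4 libraries, 1 point per library. Ccr7, Cxcr3 and Cxcr6 (left) stepped between the groups, Cxcr3 and Cxcr6 lying close to each other in both WT-labeled libraries and apart in the others. In the middle, KO1 alone was low for Klf2, and both WT2 and KO1 were low for S1pr1. WT2 stood out for Cx3cr1 (right).

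The ligands of the member receptors were measured in the same libraries as a list of 13 genes, of which 9 could be tested. None of the 9 passed the threshold in the edgeR test or in DESeq2, 1 had an unadjusted p under 0.05 (13.7% of all genes), 2 were positive and 7 negative, and the median log2 fold change was -0.89. The ligand genes of CCR7, Ccl19, Ccl21a and Ccl21b, were at 0 counts in all 4 libraries, where 3 counts would be 0.557 to 0.747 CPM. The 4 most abundant genes of the list were Ccl7, Ccl2, Ccl8 and Ccl12, with log2 fold changes of -0.89, -0.61, -1.29 and -1.08 (edgeR adjusted p = 0.555, 0.648, 0.449 and 0.415). Of these, Ccl8 is not among the ligands of CCR2 named above. Ccl7 had 2190, 1770, 715 and 1940 CPM in WT1, WT2, KO1 and KO2, so that it was low in KO1 alone, the library in which Ccr2 was highest. The median over the 9 ligands was -0.66 without WT1 and -1.19 without KO2.

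The ligands of CXCR6, CXCR3 and CXCR4 were looked at after their values were seen. Cxcl16, the ligand of CXCR6, had 633 and 436 CPM in the WT-labeled libraries and 193 and 278 in the KO-labeled ones, a log2 fold change of -1.52 ± 0.51 (SE; edgeR adjusted p = 0.244), opposite in sign to its receptor. Cxcl9 had 60.0, 207, 308 and 32.9 CPM and Cxcl10 had 148, 245, 259 and 137, with log2 fold changes of 0.01 and -0.32 (edgeR adjusted p = 0.997 and 0.799). For both, WT2 and KO1 were high and WT1 and KO2 low, unlike Cxcr3. Cxcl12, the ligand of CXCR4, had 1, 10, 137 and 0 counts and was thus found mainly in KO1. The fibroblast markers were highest in KO1 as well, and their part in the Cxcl12 counts was not tested.

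Enzymes and transporters that supply or break down S1P, the ligand of S1PR1, were a list of 7 with 5 tested. None passed the threshold in the edgeR test or in DESeq2 or had an unadjusted p under 0.05, all 5 were negative, and the median was -0.77. It was -0.18 without WT1, -0.39 without KO1 and -1.30 without WT2. Sgpl1, the lyase that destroys S1P, had 787, 837, 582 and 1522 counts and a log2 fold change of -0.24 ± 0.51 (SE). The kinases Sphk2 and Sphk1, which make S1P, had log2 fold changes of -0.85 and -0.77, and the phosphatase gene Sgpp1 had -0.08. Median and signs were relative to TMM scaling: with no scaling factors the median over all genes moved by 0.33 and Sgpl1 was at 0.07.

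Other lipid guidance receptors, a list of 8 with 6 tested, had 0 genes past the threshold in the edgeR test and in DESeq2, 1 in the likelihood ratio test and 4 at an unadjusted p under 0.05 (13.7% of all genes), with 5 positive, 1 negative and a median of 1.74. S1pr2, a receptor for S1P that holds cells back, was the most abundant, with 222, 142, 29.9 and 132 CPM, a log2 fold change of -1.48 ± 0.69 (SE; edgeR adjusted p = 0.385) and its lowest value in KO1. Without KO2 it passed the threshold (edgeR adjusted p = 0.00467). Gpr132, Gpr183, the receptor for oxysterols, and Gpr174 had log2 fold changes of 1.18, 1.18 and 3.20 (edgeR adjusted p = 0.362, 0.442 and 0.309). With a library left out Gpr183 ran from 0.60, without WT1, to 2.04, without WT2. Gpr174, which had 0 counts in WT1, was at 1.80 without KO1 and has no usable value without WT2. S1pr2 and S1pr1 shared the low value in KO1 and differed in WT2.

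Other chemokine receptors were a list of 17 with 6 tested. None passed the threshold in the edgeR test, 2 passed in DESeq2, 2 had an unadjusted p under 0.05 (13.7% of all genes), 5 were positive and 1 negative, and the median was 0.62. It was 0.33 without WT1, 0.39 without KO2 and 0.95 without KO1. Among the most abundant were Ccrl2, a receptor that binds chemerin, and Ccr1, a receptor of monocytes and macrophages, with log2 fold changes of 0.50 and 0.16 (edgeR adjusted p = 0.781 and 0.901). Ackr3, which takes up CXCL12, had 0, 0, 64 and 32 counts (edgeR adjusted p = 0.0624). Against a floor of 3 counts in each library it was at least 10.8-fold higher in the KO-labeled libraries by TMM-scaled CPM. By plain CPM this limit was 13.9, or 8.20 without KO1. Ccr8, chosen after its values were seen, had 0, 0, 31 and 14 counts (edgeR adjusted p = 0.144). It was at least 5.07-fold higher by TMM-scaled CPM on the same floor, and by plain CPM the limit was 6.56, or 3.59 without KO1. Ccr10, Cxcr1 and Ackr2 were at 0 in all 4 libraries.

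Tissue residence genes, the counterpart of the recirculation genes, were a list of 8 with 6 tested. None passed the threshold in the edgeR test or in DESeq2, 1 had an unadjusted p under 0.05 (13.7% of all genes), 5 were positive and 1 negative, and the median was 1.03, or 0.61 without WT1. Cd69, whose protein binds S1PR1 and takes it off the cell surface, had 14.7, 8.92, 49.3 and 35.5 CPM, a log2 fold change of 1.48 ± 0.52 (SE; edgeR adjusted p = 0.265). Rgs1, Runx3 and Prdm1 had log2 fold changes of 0.59, -0.82 and 0.44 (edgeR adjusted p = 0.566, 0.436 and 0.800). In plain CPM 4 of the 6 did not overlap between the groups, 3 higher and 1 lower, beside 48.4% of all genes.

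The machinery through which these receptors signal was a list of 22 genes with 21 tested. Past the threshold, 1 rose and 0 fell, and the median log2 fold change was -0.31, which became 0.02 with no scaling factors. Without KO2 the median was -0.57, and without KO1 it was -0.17. The gene that rose was Rgs16, which shortens signaling by G proteins downstream of chemokine receptors, with 15, 24, 434 and 611 counts in WT1, WT2, KO1 and KO2. Its log2 fold change was 4.17 ± 0.51 (SE; edgeR adjusted p = 0.0172). Rgs16, like Ccr7, was high in both KO-labeled libraries and kept its call in each leave-one-out fit. The other 20 genes tested, which include the G protein subunits, kinases and arrestins, did not pass with all 4 libraries.

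**Figure D5:**
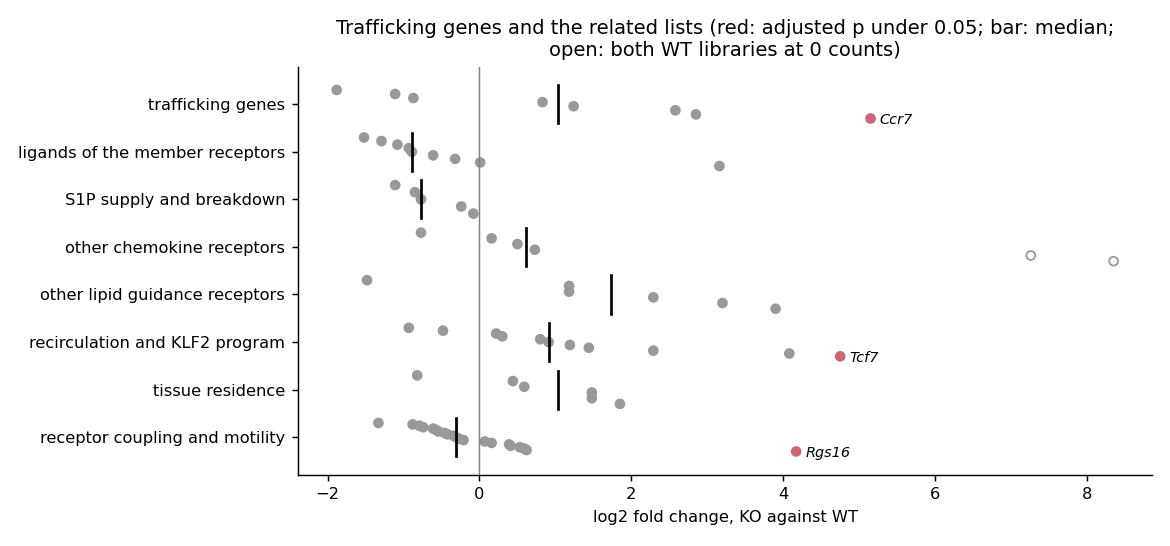
Fitted log2 fold change, KO against WT, of every tested gene of the trafficking genes and the 7 related lists, with red for an edgeR adjusted p under 0.05, a bar at each list's median, and open circles where both WT-labeled libraries had 0 counts and the fitted value depends on the prior count. Ccr7, Tcf7 and Rgs16 were the genes past the threshold.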

How the data were processed

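Whole-number read counts per gene were deposited by the authors for each library, without normalization. Per the submitters' processing notes and the study's methods, reads were aligned to mm10 with HISAT2 2.1.0 and counted with HTSeq 0.11.0. The annotation, the strand setting and any trimming are not given in the sources used here. Groups and replicate numbers came from the library titles. The 5 summary lines of each table were left out, and 20.5% to 28.8% of the reads lay on genes. No 2 libraries agreed within sampling noise.

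The tests used edgeR 4.0.16 under R 4.3.3: filterByExpr (minimum count 10, minimum total 15), TMM factors, and glmQLFit with glmQLFTest on all 4 libraries, group being the single term, two-sided, Benjamini-Hochberg adjustment over 11837 genes, threshold 0.05, prior count 0.125. The SE was the size of the log2 fold change divided by the square root of F. The smallest exact permutation p of 2 against 2 libraries is 0.333, so single values carry no test. Intervals are exact Clopper-Pearson at the 95% level; they and the floor of 3 counts cover counting error only. Positions, exon lengths and shared bases are from GENCODE M21 (GRCm38/mm10, 1-based). Plots used matplotlib 3.10.9 under Python 3.11.15. Scripts were checked on simulated data.

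The genes and lists were chosen with earlier results of these data known. By rule, the text names all 8 genes, Satb1, the genes of each pathway list past the threshold or else its up to 4 most abundant, the 3 genes nearest in pattern to each member, and, for the cell type markers, Cd3e, Cd8a, Csf1r and Lyz2. S1pr4 and Rgs1 are each on 2 pathway lists. A gene that the rule names is not reported here. Genes at 0 in all libraries, Xist, the endothelial markers, and genes said to be chosen after their values were seen, are outside it. Alternatives were other scaling factors and filters, DESeq2 1.42.0, the likelihood ratio test, a replicate block, thinned counts, a prior count of 2 and each library left out. A crossed block was added after seeing the data.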

Additional observations from a re-analysis of the deposited data

How the results depend on the processing

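With 2 libraries per group and a coefficient of variation of 42.5% within groups, the smallest change that passed was 3.15 on the log2 scale, so smaller changes of Ccr2, Klf2, Cxcr4, Cx3cr1 and S1pr1 were hard to detect. Ccr7 passed in every alternative run. Over the 8 genes, 106 of the values under alternatives kept direction and side of the threshold, 12 passed where they had not, and 1 reversed. Over the other named genes these numbers were 342, 32 and 12. The number of the 8 genes past the threshold was 1 and became 3 with no filter, in DESeq2 and in the likelihood ratio test, and ran from 1 to 4 with a library left out. Of all genes, 68 passed, 136 with no scaling factors, 583 with no filter, 117 with the stricter filter, 416 in DESeq2, 556 in the likelihood ratio test, and 113 to 1249 with a library left out, the most without KO2. The causes were not tested.

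The replicate numbers were shared by the groups, and deviations of same-numbered libraries correlated at -0.18 over genes. With 2 libraries per group this value cannot show whether same-numbered libraries were paired. With a replicate block 2 of the 8 genes (Ccr7 and Cxcr6) and 215 of all genes passed. With the crossed replicate block, 3 and 647 passed.

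Reversed values were, with a library left out, S1pr1 from -2.36 to 2.57, Ccrl2 from -1.09 to 1.22, Ccr1 from -0.081 to 0.33, Prdm1 from -0.75 to 1.06, Sgpl1 from -1.04 to 0.25 and Cxcl9 from -2.24 to 0.94. With no scaling factors Sgpl1 was 0.073 and Cxcl10 0.011. Cxcl9 was -0.050 with no filter, -0.016 with thinned counts, and -0.47 with the replicate block and with the crossed one. Of these genes none passed the threshold under these settings, and the causes were not tested.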
